A study of Mus musculus with 8 samples.

Results

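The keratins of basal epidermal cells and of simple epithelia were followed in sorted mouse skin stem cells. The 5 genes were Krt5, Krt14, Krt15, Krt8 and Krt18, chosen by symbol from the 24755 genes listed in either of the deposited count tables. All 5 were listed for hair follicle stem cells (HFSCs), where 3 passed a filter on low counts. For epidermal stem cells (EpdSCs) 3 were listed, and the table for that cell type had no entry for Krt8 or Krt18. The 8 bulk RNA-seq libraries came from dorsal skin in telogen, the resting phase of the hair cycle, with 2 WT and 2 Msx2-KO libraries of each cell type. WT mice were C57BL/6J, and Msx2-KO mice carried a germline insertion of a neo cassette upstream of Msx2 exon 2 in every cell. HFSCs were sorted as CD34+CD49f+Sca-1- cells and EpdSCs as CD34-CD49f+Sca-1+ cells. Mice were 6 months old, apart from the WT mice used for HFSCs at 2 months, so that in HFSCs age and genotype cannot be told apart. Nothing in the labels tied a library to a single animal, and the p-values measure the spread between these libraries, which may be technical. Column names began with YC for WT HFSCs and with Ch for all other libraries. Among EpdSCs the Msx2-KO numbers lay apart from the WT numbers, which adjoined those of Msx2-KO HFSCs. What the names stand for is not given, so that any grouping of libraries by preparation cannot be told apart from genotype.

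Keratins are the intermediate filament proteins of epithelia, and a filament forms only from a type I and a type II keratin together. Krt5 (type II) and Krt14 (type I) make up the filaments of basal keratinocytes in the epidermis and the outer root sheath. Krt15 is a further type I keratin of basal cells that can pair with Krt5 and is widely used as a marker of the hair follicle bulge, where HFSCs reside. Krt8 (type II) and Krt18 (type I) are the pair of simple epithelia, and in adult skin they are known chiefly from Merkel cells, the touch-sensing cells of the touch dome. When keratinocytes leave the basal layer they switch from Krt5 and Krt14 to the suprabasal pair Krt1 and Krt10.

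In GRCm38, Krt14 (ENSMUSG00000045545.8) lies on the minus strand at chr11:100203162-100207548, and Krt15 (ENSMUSG00000054146.8) on the same strand at chr11:100131758-100135928. Krt5 (ENSMUSG00000061527.7), on the minus strand at chr15:101707070-101712898, is in the type II cluster. Krt8 (ENSMUSG00000049382.10) lies on the minus strand at chr15:101996698-102004482, and Krt18 (ENSMUSG00000023043.7) on the plus strand at chr15:102028180-102032027, 23698 bases from Krt8. Krt18 is thus the type I keratin that stands apart from the type I cluster. Predicted genes on the opposite strand overlap Krt5 (Gm44323) and Krt8 (Gm36026). Neither was listed in the tables, and the use of strand in counting is not given in the sources used here.

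Keratins resemble each other, so the coding sequences were compared to see which counts could be exchanged between genes. Krt14 and Krt15 had 71.8% of aligned coding bases in common. The stretch of 90 bases around their longest identical run, in exon 3 of both genes, shows how far they differ there. The positions that differ are in capitals, and the longest run without a difference is 28 bases. The stretches are chr11:100204987-100205076 for Krt14 and chr11:100134214-100134303 for Krt15, both on the minus strand.
Krt14: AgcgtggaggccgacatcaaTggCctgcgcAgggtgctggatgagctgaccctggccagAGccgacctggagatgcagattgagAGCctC
Krt15: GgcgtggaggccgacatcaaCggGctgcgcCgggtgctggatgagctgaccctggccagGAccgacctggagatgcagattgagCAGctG
A read of 100 bases from this stretch would therefore hold several differences. None of the 100-base stretches of the Krt15 or Krt18 transcripts occurred in a transcript of any other gene.

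The nearest relatives of Krt14 and Krt5 are closer. Krt14 had 86.2% of aligned coding bases in common with Krt16 and 82.8% with Krt17, and Krt5 had 80.5% in common with Krt6a. These relatives are the type I and type II keratins of stressed and follicular keratinocytes. The longest run that Krt14 shares with Krt16 is 134 bases in exon 1 (chr11:100207017-100207150, minus strand). It is shown in lower case throughout, since no base differs between the partners, and a read that lies inside it cannot be assigned to a gene.
Krt14 and Krt16: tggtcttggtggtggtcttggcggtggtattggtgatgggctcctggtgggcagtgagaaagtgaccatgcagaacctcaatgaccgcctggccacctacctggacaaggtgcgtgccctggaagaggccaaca
Shared runs were a small part of each transcript. Of the 100-base stretches, 2.88% of those of Krt14 were also found in Krt16, and 2.38% of those of Krt5 in another gene, chiefly Krt6a.

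The type II pair Krt5 and Krt8 had 69.6% of aligned coding bases in common. The 90 bases around their longest identical run span exons 2 and 3 of both genes, within chr15:101710742-101711560 for Krt5 and chr15:102000583-102001448 for Krt8 on the minus strand. The capitals mark the 15 positions that differ.
Krt5: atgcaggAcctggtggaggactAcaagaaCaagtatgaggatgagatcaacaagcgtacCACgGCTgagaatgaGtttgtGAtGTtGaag
Krt8: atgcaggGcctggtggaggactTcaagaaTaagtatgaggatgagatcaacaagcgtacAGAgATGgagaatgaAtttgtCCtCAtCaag
Krt8 has another near copy, the pseudogene Krt8-ps. Of the 100-base stretches of Krt8, 16.9% were also found in Krt8-ps, and at 50 bases the share was 26.9%. Krt8 counts were therefore uncertain in a way that those of Krt15 and Krt18 were not.

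Promoter windows of RefSeq (GRCm38.p6), from 250 bases before to 50 bases after the transcript start, were given for 4 of the 5 genes and not for Krt15. The window of Krt14 began 1518 bases inside the gene's annotated start and was set aside. Both strands were searched for the letters of the TATA box (TATAAA), the Sp1 site (GGGCGG), the AP-2 site (GCCNNNGGC), the AP-1 site (TGANTCA), a homeodomain site (TAATTG) and the CCAAT box. The letters TATAAA occurred in the window of Krt8 and not in those of Krt5 and Krt18, and 13.62% of all 32851 windows held them. The Krt8 matches began at bases 248 and 250 of the window and so span the RefSeq start. That start lies 140 bases inside the annotated start of Krt8. Only exact letters were searched, so the search does not show which of these genes has a TATA box. The AP-2 letters occurred in the Krt18 window alone of these 3, against 16.59% of all windows. None of the other 4 motifs was found in the 3 windows.

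The HFSC libraries held 4324511 and 3132974 estimated counts in WT against 11016659 and 6895606 in Msx2-KO. The EpdSC values, brought back to counts, gave 15213627 to 21092705 per library. Mitochondrial and ribosomal RNA genes took 11.2% and 41.4% of the counts in WT HFSCs and 57.0% and 62.5% in Msx2-KO HFSCs. In EpdSCs the order was reversed, with 26.9% and 19.1% in WT against 5.16% and 9.61% in Msx2-KO. Msx2 had 53 and 7 counts in WT against 40 and 18 in Msx2-KO HFSCs. In EpdSCs its values were 58.5 and 85.4 in WT against 150.3 and 22.2 in Msx2-KO. The groups overlapped in both cell types, and these counts do not separate the exons, so that the Msx2-KO libraries are below called by their label. Cd34, the surface marker of the HFSC sort, had 3678 and 1350 counts in WT against 1627 and 677.0 in Msx2-KO HFSCs and was not listed for EpdSCs. Ly6a, which encodes Sca-1, had values of 472.2 and 544.4 in WT against 826.4 and 3493 in Msx2-KO EpdSCs and was not listed for HFSCs. Each library thus held transcripts of its sort marker. The marker used to exclude cells had no entry, which does not show that its transcripts were absent. Genes with 0 counts in every library, such as Trdc, were still listed for HFSCs. The rule by which genes were left out is not given in the sources used here.

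In HFSCs the question was whether the basal and bulge keratins differed between the genotypes. The normalized counts of Krt5 and Krt15 were lower in both Msx2-KO libraries than in either WT library, and those of Krt14 higher, but none of the 3 genes was called. To be called, a gene needed an adjusted p (Benjamini-Hochberg) under 0.05 and a fold change over 2. HFSC values below are estimated counts scaled by the TMM factors of edgeR, with which edgeR's quasi-likelihood test was run on 14422 genes. That test called 0.0% of all genes, and 18.1% had an unadjusted p under 0.05, a level none of the 3 keratins reached. DESeq2 called 4.78% of the genes and limma-trend 9.76%, and neither called these keratins.

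Krt5, the type II partner of both basal type I keratins, had normalized counts of 15051 and 15544 in WT against 9377 and 9167 in Msx2-KO HFSCs. Both Msx2-KO libraries were below both WT libraries, and the replicates of a group lay close together, with means of 15298 ± 349 and 9272 ± 149 (SD, n = 2). The log2 fold change was -0.72 (SE 0.33, adjusted p = 0.393, edgeR's quasi-likelihood test). By DESeq2 the unadjusted p was 0.00882 and the adjusted p 0.109.

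Krt15, the bulge keratin, was the most abundant of the 3 in HFSCs. Its normalized counts were 28679 and 27129 in WT against 13530 and 16882 in Msx2-KO. The groups did not overlap, with Msx2-KO replicate 1 lowest. The log2 fold change was -0.88 (SE 0.42, adjusted p = 0.417, edgeR's quasi-likelihood test), and DESeq2 gave an adjusted p of 0.0656. With library totals in place of the TMM factors the log2 fold changes were -1.75 for Krt15 and -1.57 for Krt5, and neither was called.

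Krt14, the classical type I partner of Krt5, went the other way in HFSCs. Its normalized counts were 3896 and 4075 in WT against 5242 and 4499 in Msx2-KO. The Msx2-KO libraries were both higher, by less than for the other keratins. The log2 fold change was 0.29 (SE 0.26, adjusted p = 0.721, edgeR's quasi-likelihood test), and it turned to -0.54 when library totals replaced the TMM factors. Library totals moved the median of all genes by -0.86 on the log2 scale. Relative to that median the change of Krt14 was 0.43 with TMM factors and 0.46 with library totals. Groups that do not overlap were common in HFSCs, with Msx2-KO lower for 33.5% of all genes tested and higher for 17.5%.

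**Figure D1:**
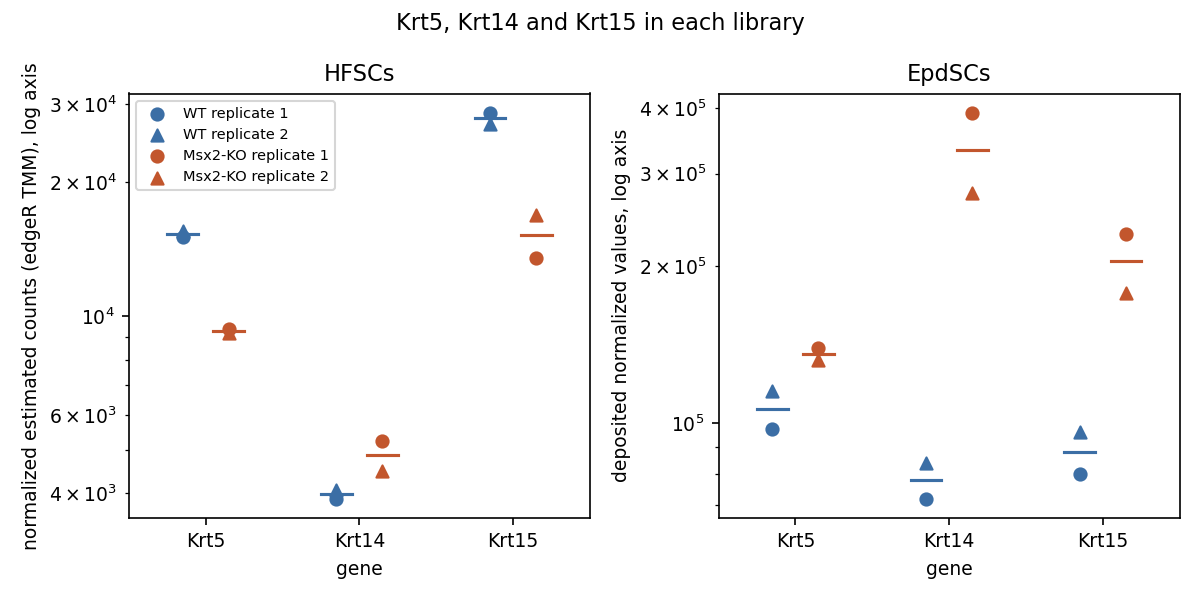
Krt5, Krt14 and Krt15 in each library on a log axis, as TMM-normalized estimated counts in HFSCs (left) and deposited normalized values in EpdSCs (right). Circles and triangles are replicates 1 and 2, blue is WT, orange is Msx2-KO and lines are group means. In HFSCs the 2 Msx2-KO points of Krt5 and Krt15 lie below the WT points and those of Krt14 above, and in EpdSCs all 3 genes have Msx2-KO points above WT, farthest for Krt14 at 392157 and 275191.

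In EpdSCs all 3 genes had higher values in both Msx2-KO libraries than in either WT library, most for Krt14, which averaged 4.28-fold the WT value. None was called. EpdSC values are the normalized values as deposited, tested with limma on log2(value + 1) over 16231 genes. limma called 9.35% of all genes, 1.57% as higher and 7.78% as lower in Msx2-KO. At an unadjusted p under 0.05, a level passed by 35.3% of all genes, limma found 1 of the 3 keratins, Krt14. edgeR on the counts recovered from these values called none of the 3 and 0.0% of all genes.

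Krt14 had values of 71869 and 84155 in WT against 392157 and 275191 in Msx2-KO EpdSCs. The lowest Msx2-KO library was above the highest WT library, with means of 78012 ± 8687 and 333674 ± 82707 (SD, n = 2). The log2 fold change was 2.08 (SE 0.50, unadjusted p = 0.0158, adjusted p = 0.0832 by limma). Over the alternatives that kept all libraries, the adjusted p ranged from 0.0525 to 0.172. The call rested on which libraries were in the fit. The adjusted p by limma was 0.0375 or 0.0157 when Msx2-KO replicate 1 or 2 was left out. It was 0.421 or 0.402 when WT replicate 1 or 2 was.

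Krt15 had values of 79951 and 96241 in WT against 230109 and 177798 in Msx2-KO EpdSCs, without overlap. The log2 fold change was 1.21 (SE 0.49, adjusted p = 0.172 by limma). Of the alternatives run, it was called only with Msx2-KO replicate 2 left out, with a log2 fold change of 1.39 and an adjusted p of 0.0353 by limma. Krt15, known from the bulge, was thus abundant in the sorted epidermal cells of both genotypes.

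Krt5 had values of 97473 and 115290 in WT against 139417 and 131906 in Msx2-KO EpdSCs. The groups did not overlap, and the distance between them was about that between the WT replicates. The log2 fold change was 0.36 (SE 0.47, adjusted p = 0.597 by limma). It turned to -0.18 when the mitochondrial and ribosomal RNA genes were left out and the libraries scaled to equal totals, a scaling that moved the median of all genes by -0.50. With equal totals of all genes it was 0.087. Relative to that median the change of Krt5 was 0.99 as deposited and 0.96 after that scaling.

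Several features of the Msx2-KO EpdSC libraries moved with these values, and their part in the result was not tested. Groups without overlap were the rule, with Msx2-KO higher for 27.8% of all genes and lower for 44.5%. Malat1, a nuclear long noncoding RNA, had values of 224974 and 194454 in WT against 2400 and 1437 in Msx2-KO. Rn7sk, a small nuclear RNA, had 190271 and 245493 in WT against 382.5 and 3051 in Msx2-KO. The share of mitochondrial and ribosomal RNA genes given above was lower in both Msx2-KO libraries as well. The fold changes also went with gene length. The 2892 protein-coding genes whose mean was 1000 or more were split by total exon length into 4 bins of like size. Their median log2 fold change fell from 1.71 in the bin with the shortest exons, 204 to 3431 bases, to -0.18 in the bin with the longest. The exons of Krt5, Krt14 and Krt15 add up to 2197, 1758 and 1767 bases, which places all 3 in the shortest bin. Against the median of that bin, Krt14 was higher and Krt15 and Krt5 were lower. In HFSCs the corresponding medians were 0.21 in the shortest bin and -0.40 in the longest.

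**Figure D2:**
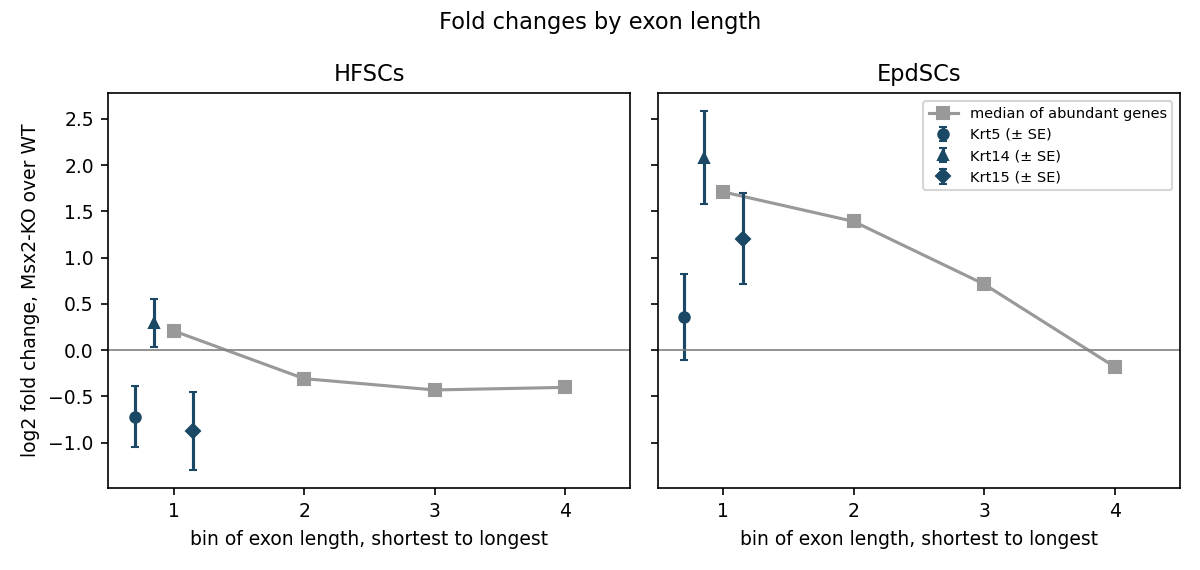
Median log2 fold change (Msx2-KO over WT) of abundant protein-coding genes in 4 bins of total exon length (grey squares) in HFSCs (left) and EpdSCs (right), with Krt5, Krt14 and Krt15 (blue, ± SE of the fit) beside the bin that holds them. In EpdSCs the medians fall from 1.71 to -0.18, and Krt14 at 2.08 is the only one of the 3 keratins above the median of its bin.

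The ratio of 2 keratins within a library does not depend on how that library was scaled, so the ratios could be read in both cell types. It is not free of differences that go with exon length, which was 2197 bases for Krt5 against 1758 for Krt14 and 1767 for Krt15. Their part in the ratios was not tested. In both cell types Krt14 was higher relative to Krt5 and to Krt15 in the Msx2-KO libraries. With 2 libraries against 2, the exact two-sided permutation test cannot give a p under 0.333, and 6 ratios were tested.

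The Krt5 over Krt14 ratio in HFSCs was 3.86 and 3.81 in WT against 1.79 and 2.04 in Msx2-KO. On the log2 scale this was 1.94 ± 0.013 and 0.93 ± 0.13 (SD, n = 2), a difference of -1.01 (exact permutation p = 0.333, adjusted p = 0.4). The difference was several times the spread within either group. In EpdSCs the same ratio was 1.36 and 1.37 in WT against 0.356 and 0.479 in Msx2-KO. The log2 difference was -1.72 (exact permutation p = 0.333, adjusted p = 0.4), with SDs of 0.010 in WT against 0.30 in Msx2-KO. Krt5 counts thus exceeded Krt14 counts in all libraries but the Msx2-KO EpdSC libraries.

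Shared runs could move counts between relatives, so the ratio was also formed with Krt16 and Krt17 added to Krt14 and with Krt6a, Krt6b and Krt75 added to Krt5. That choice was made after the data were seen. The log2 difference was then -1.57 in HFSCs and -1.67 in EpdSCs, in the same direction. Krt17 was the most abundant of the added type I genes in HFSCs, where it had 895 and 730.2 counts in WT against 5792 and 2811 in Msx2-KO.

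The Krt15 over Krt14 ratio in HFSCs was 7.36 and 6.66 in WT against 2.58 and 3.75 in Msx2-KO, a log2 difference of -1.17 (exact permutation p = 0.333). In EpdSCs it was 1.11 and 1.14 in WT against 0.587 and 0.646 in Msx2-KO, a log2 difference of -0.87 (exact permutation p = 0.333). The groups were apart in both cell types.

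The Krt15 over Krt5 ratio separated the genotypes in EpdSCs and not in HFSCs. In HFSCs it was 1.91 and 1.75 in WT against 1.44 and 1.84 in Msx2-KO, so the groups overlapped, with a log2 difference of -0.16 (exact permutation p = 0.667). In EpdSCs it was 0.820 and 0.835 in WT against 1.65 and 1.35 in Msx2-KO, a log2 difference of 0.85 (exact permutation p = 0.333). The difference between the cell types was not tested.

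**Figure D3:**
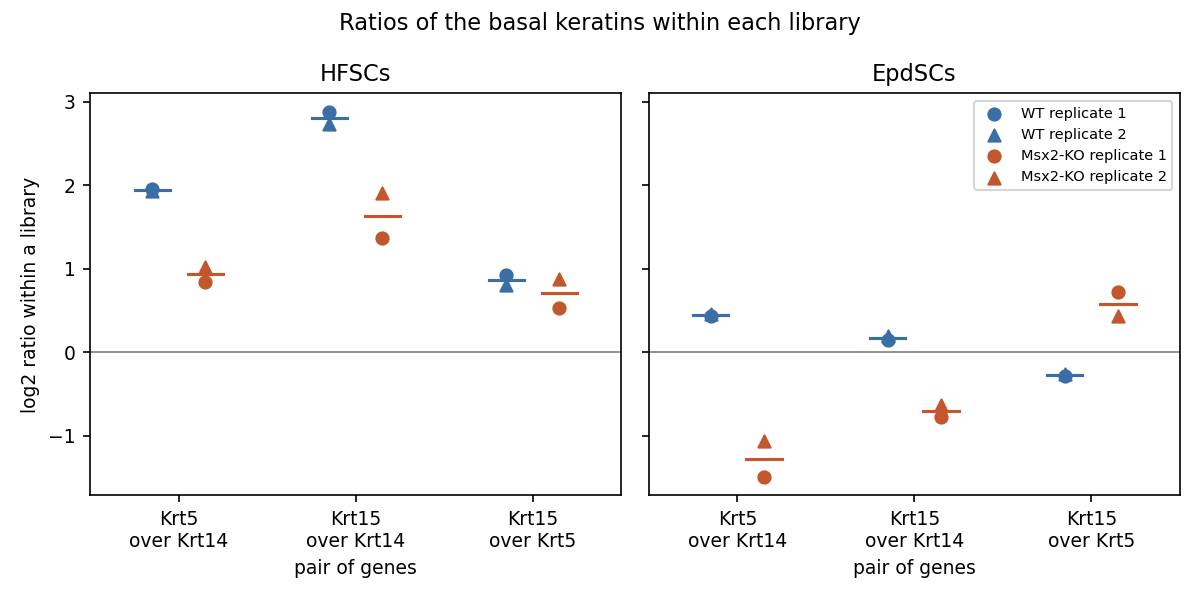
Log2 ratios of Krt5 over Krt14, Krt15 over Krt14 and Krt15 over Krt5 within each library, in HFSCs (left) and EpdSCs (right). Circles and triangles are replicates 1 and 2, blue is WT, orange is Msx2-KO and lines are group means. The first and second ratios are lower in Msx2-KO in both cell types, with log2 differences of -1.01 and -1.17 in HFSCs and -1.72 and -0.87 in EpdSCs, and the WT replicates nearly coincide.

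Levels of different genes were compared per kilobase of exon. In HFSCs the order was Krt15, Krt5, Krt14 in all 4 libraries, with normalized counts per kilobase of 16231 and 15353, 6851 and 7075, and 2216 and 2318 in WT. In the Msx2-KO libraries these levels were 7657 and 9554 for Krt15, 4268 and 4172 for Krt5 and 2982 and 2559 for Krt14. The order was kept, and the span from the highest to the lowest narrowed. In WT EpdSCs the levels per kilobase were nearly equal, 45247 and 54466 for Krt15, 44366 and 52476 for Krt5 and 40881 and 47870 for Krt14. Neighbours in this order lay closer together than the 2 libraries did, and the order was the same within each library. In Msx2-KO EpdSCs they separated into Krt14 (223070 and 156536), Krt15 (130226 and 100621) and Krt5 (63458 and 60039), without overlap.

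The basal keratins were also read as a share of the counts of all keratin genes, which is free of scaling as well. Like the ratios, it is not free of differences that go with exon length, and the exons of Krt1 add up to 4415 bases. Of 54 keratins listed, 33 had an entry for HFSCs and 22 for EpdSCs. Krt5, Krt14 and Krt15 together made up 93.1% and 89.4% of keratin counts in WT HFSCs and 67.4% and 50.5% in Msx2-KO HFSCs. In EpdSCs they made up 40.3% and 54.2% in WT against 82.7% and 86.2% in Msx2-KO. The joint share was thus lower in Msx2-KO in HFSCs and higher in EpdSCs, with no overlap in either. Counting error was small beside these gaps, since Wilson 95% intervals of the joint share spanned at most 0.907 percentage points, and such intervals cover counting error only. The share of Krt1 and Krt10 moved the opposite way, from 0.659% and 0.312% to 9.48% and 26.0% in HFSCs and from 41.8% and 33.8% to 3.84% and 10.3% in EpdSCs.

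Within the pool, Krt14 took 11.6% and 15.4% of keratin counts in WT against 42.6% and 40.5% in Msx2-KO EpdSCs. In HFSCs it took 7.62% and 7.79% in WT against 12.6% and 7.44% in Msx2-KO, which overlapped. Krt15 took 56.1% and 51.9% in WT against 32.4% and 27.9% in Msx2-KO HFSCs, and averaged 15.3% ± 3.34 in WT and 25.6% ± 0.856 in Msx2-KO EpdSCs (SD, n = 2), without overlap. The share of Krt5 in EpdSCs, 15.8% and 21.2% in WT against 15.1% and 19.4% in Msx2-KO, overlapped. As a whole the keratins took 1.90% and 1.77% of protein-coding counts in WT against 1.69% and 2.53% in Msx2-KO HFSCs, and 6.16% and 5.44% in WT against 4.17% and 5.55% in Msx2-KO EpdSCs. The groups overlapped in both, so the makeup of the keratin pool differed where its size did not separate the groups.

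**Figure D4:**
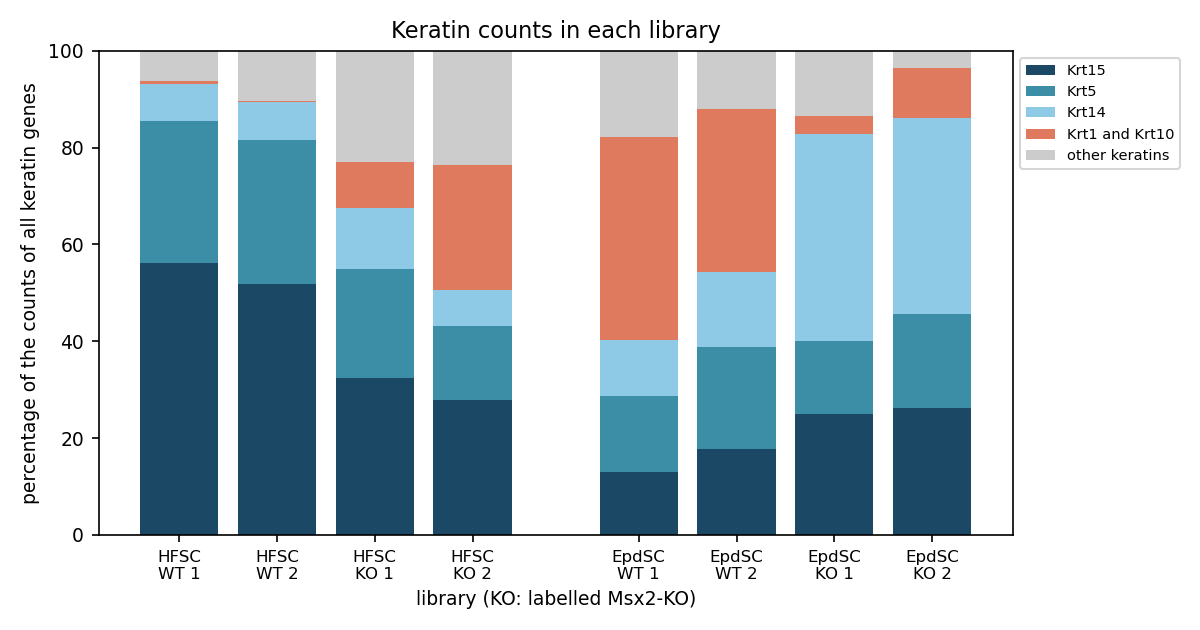
Share of the counts of all keratin genes taken by Krt15, Krt5, Krt14, Krt1 with Krt10 and all other keratins, as stacked bars in percent for each of the 8 libraries. The 3 basal keratins together take 93.1% and 89.4% in WT against 67.4% and 50.5% in Msx2-KO HFSCs, and in EpdSCs they take more in Msx2-KO, with 42.6% and 40.5% for Krt14.

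Krt8 and Krt18 were barely detected in HFSCs and failed the filter on low counts. Krt8 had 2 and 0 counts in WT against 29 and 0 in Msx2-KO. Krt18 had 3 and 0 counts in WT against 0 and 22 in Msx2-KO. Each gene was above the floor of 3 counts in 1 library, Krt8 in Msx2-KO replicate 1 and Krt18 in Msx2-KO replicate 2, so the partners of the pair were not detected together in either. Fewer genes had at least 1 count in Msx2-KO HFSCs, 11409 and 14251 against 22448 and 19596 in WT, although the library totals were higher. A count of 0 there does not show that a transcript was absent from the cells. In CPM (counts for a library total of 1000000) these were 2.63 for Krt8 (exact Clopper-Pearson 95% interval 1.76 to 3.78) and 3.19 for Krt18 (2.00 to 4.83). The floor of 3 counts stood at 0.958 CPM in WT replicate 2 and at 0.272 and 0.435 in the Msx2-KO replicates. For a count of 0 in these libraries, the exact 95% interval reached 1.18, 0.335 and 0.535 CPM, and such intervals cover counting error only.

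The pseudogene Krt8-ps had 3 and 15 counts in WT against 142 and 0 in Msx2-KO HFSCs. The library with 29 Krt8 counts was also the one with the most Krt8-ps counts, and reads from their shared stretches cannot be told apart. In the absence of a further Krt8 library, the groups overlapped for both genes and no fold is given. With Msx2-KO replicate 2 left out edgeR called Krt8 (adjusted p = 0.0242), and with Msx2-KO replicate 1 left out it called Krt18 (adjusted p = 0.0415). Each of these calls rested on the single remaining Msx2-KO library.

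Markers of Merkel cells, a known source of Krt8 and Krt18 in skin, were near 0 in HFSCs where they had an entry. Of 10 markers, Krt20, Sox2, Isl1 and Insm1 had no entry, and Atoh1 had 2 counts in WT replicate 1 and 0 elsewhere. The normalized counts of the list summed to 29.6 to 57.8 in WT against 1.30 to 19.3 in Msx2-KO, chiefly Piezo2 with 37 and 9 counts in WT against 29 and 0 in Msx2-KO. Krt19, the type I keratin next to Krt15 and a further partner of Krt8, had 8 and 5 counts in WT against 0 and 6 in Msx2-KO. It is named here after its values were seen.

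The other keratins were counted from lists of 25 type I and 24 type II genes. In HFSCs 17 of them passed the filter. edgeR called none of them and found 11 at an unadjusted p under 0.05, a level reached by 18.1% of all genes. DESeq2, which called 4.78% of all genes, called 6 of them as higher and 2 as lower. Without overlap, 3 type I and 4 type II keratins were higher in the Msx2-KO libraries and as many of each type were lower, where 17.5% and 33.5% of all genes were. Among the higher ones, Krt10 had normalized counts of 213 and 114 in WT against 2462 and 9917 in Msx2-KO (log2 fold change 5.23, adjusted p = 0.143 by edgeR), and Krt1 had 125 and 49.3 in WT against 1494 and 5790 in Msx2-KO. Krt79, a keratin of the infundibulum and sebaceous duct, had 97.7 and 33.5 in WT against 3562 and 3241 in Msx2-KO. Krt77 had 148 and 82.8 in WT against 791 and 5391 in Msx2-KO, and Krt24 had 88.8 and 120 in WT against 403 and 562 in Msx2-KO. Krt78, a keratin of differentiating layers, had 10.6 and 15.8 in WT against 0 and 110 in Msx2-KO and overlapped.

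Among those lower in the Msx2-KO HFSC libraries, Krt6a, of the inner bulge and companion layer, had normalized counts of 767 and 2016 in WT against 467 and 242 in Msx2-KO. Krt6b had 115 and 264 estimated counts in WT and 0 after rounding in both Msx2-KO libraries. Krt80 had 1067 and 984 in WT against 381 and 742 in Msx2-KO. The median log2 fold change was 0.71 over the other type I keratins tested and 1.27 over the other type II keratins, against -0.14 over all genes.

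In EpdSCs all 19 of the other keratins with an entry were tested. Of these limma called 4 as lower and none as higher, beside 7.78% and 1.57% of all genes. edgeR on recovered counts tested 15 of them and called 0. It found 6 at an unadjusted p under 0.05, as it did 5180 of all 15258 genes. The 4 called by limma were Krt27 and Krt71, keratins of the inner root sheath, Krt7 and Krt78. Krt78 was the most abundant of them, with 3591 and 2429 in WT against 49.7 and 76.8 in Msx2-KO (log2 fold change -5.56, adjusted p = 0.0266 by limma). Krt27 had 15 and 18 counts and Krt71 had 38 and 24 counts in WT, and both were at 0 in the Msx2-KO libraries. Krt7 had 23 and 50 counts in WT against 0 and 1 in Msx2-KO.

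The suprabasal pair did not pass the test in EpdSCs. Krt10 had values of 158740 and 107937 in WT against 16336 and 30738 in Msx2-KO (adjusted p = 0.0807 by limma), and Krt1 had 99401 and 76032 in WT against 19059 and 39004 in Msx2-KO (adjusted p = 0.149 by limma). Both were lower without overlap, the reverse of HFSCs. Krt17 had 2990 and 2487 in WT against 77.7 and 463 in Msx2-KO, again the reverse of HFSCs. Krt80 was lower without overlap, and Krt77, Krt79, Krt16, Krt6a and Krt32 overlapped. The median log2 fold change was -2.50 over the other type I and -1.67 over the other type II keratins, against -0.64 over all genes.

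**Figure D5:**
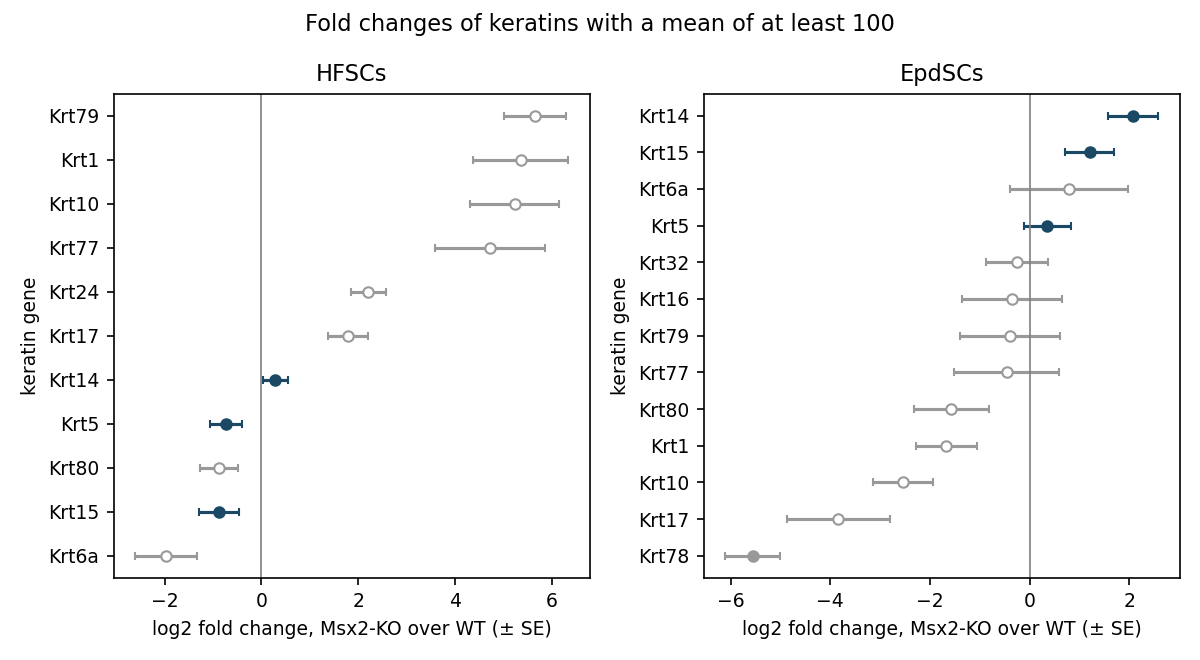
Log2 fold changes (Msx2-KO over WT, ± SE) of keratins with a mean of at least 100, ordered by size, in HFSCs (left, edgeR) and EpdSCs (right, limma). Krt5, Krt14 and Krt15 are blue, other keratins are open grey circles and the filled grey circle is a called gene, and Krt6b, at 0 after rounding in Msx2-KO HFSCs, is left out. Krt14 and Krt15 have the highest values in EpdSCs, 2.08 and 1.21, and in HFSCs they lie at 0.29 and -0.88 beside 5.36 for Krt1.

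Markers of other cell types were counted in the same libraries, and their part in the keratin values was not tested. In HFSCs, 8 of the 9 suprabasal markers tested were higher in Msx2-KO without overlap, as were 17.5% of all genes, and the normalized counts of the list of 10 summed to 1197 to 1339 in WT against 5209 to 19826 in Msx2-KO. All 9 sebaceous markers tested were higher, with sums of 548 to 627 in WT against 7053 to 8898 in Msx2-KO. Of 10 HFSC markers, Krt15 included, 7 were lower without overlap, as were 33.5% of all genes, and 1 was higher, and Sox9 had 2600 and 2485 in WT against 2261 and 1088 in Msx2-KO. Of the 7 EpdSC markers tested in HFSCs, Krt5 and Krt14 included, 5 were lower without overlap and 1 was higher. The median log2 fold change was -0.58 over the HFSC markers and -0.72 over the EpdSC markers, so the fall was not particular to HFSC markers. In these bulk libraries fewer cells of a type and less RNA per cell cannot be told apart. In EpdSCs the suprabasal list summed to 221331 to 307149 in WT against 87754 to 107458 in Msx2-KO. Of its 10 genes, 6 were lower without overlap, as were 44.5% of all genes. limma called 3 as lower, Ivl, Sbsn and Dsc1, beside 7.78% of all genes. Of 8 HFSC markers tested in EpdSCs, 4 were higher and 0 lower without overlap. Of 8 EpdSC markers, 5 were higher and 1 lower, beside 27.8% and 44.5% of all genes.

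Other marker lists were low or mixed. In HFSCs the fibroblast list summed to 373 to 416 in WT against 186 to 214 in Msx2-KO, the endothelial and pericyte list to 2150 to 2223 and 822 to 1056, the immune list to 31.6 to 70.9 and 63.5 to 123, and the melanocyte list to 1200 to 1337 and 324 to 718. In EpdSCs the same lists summed to 19.0 to 237 and 0, to 549 to 856 and 156 to 157, to 94.8 to 947 and 10.8 to 22.9, and to 112 to 175 and 24.2 to 238. In WT, Cspg4 made up most of the endothelial and pericyte sum and Mitf most of the melanocyte sum. In HFSCs Cspg4 had 2118 and 2106 in WT against 1019 and 798 in Msx2-KO, and Pecam1 had 27.7 and 24.0 against 0 and 22.0. Mitf had 1086 and 1136 in WT against 259 and 212 in Msx2-KO HFSCs. The sebaceous list in EpdSCs summed to 6971 to 7483 in WT against 11268 to 25413 in Msx2-KO. Most of that was Scd1, with 3585 and 4465 in WT against 23465 and 9990 in Msx2-KO. Of the 6 sebaceous genes tested, 2 were higher and 2 lower without overlap, beside 27.8% and 44.5% of all genes. Their median log2 fold change was -1.43. All of these EpdSC sums were below 71869, the lowest value of a basal keratin in EpdSCs. The suprabasal sums given before were above it in every EpdSC library. Such sums do not measure shares of cells, whose part in the keratin values was not tested.

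Keratin filaments are tied to desmosomes and hemidesmosomes by linker proteins, and 16 such genes were listed. In HFSCs 15 were tested, of which edgeR called none and DESeq2, which called 4.78% of all genes, called 1 as higher and 2 as lower. Without overlap, 10 were lower and 2 higher, beside 33.5% and 17.5% of all genes. Dst, which encodes the hemidesmosomal plakin that binds basal keratins, had normalized counts of 66343 and 65403 in WT against 21151 and 22830 in Msx2-KO (log2 fold change -1.58, adjusted p = 0.250 by edgeR). Col17a1, the transmembrane collagen of the hemidesmosome, had 22397 and 21342 in WT against 10628 and 11059 in Msx2-KO. Neither gene's groups overlapped, as for Krt5.

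In EpdSCs limma called 3 of the 15 linkers tested, Dsp, Eppk1 and Ppl, all lower, beside 7.78% of all genes. edgeR on recovered counts called 0 of the 15. Without overlap, 11 linkers were lower and 1 higher, where 44.5% and 27.8% of all genes were. Dsp, which anchors keratin filaments at desmosomes, had values of 169416 and 182990 in WT against 13146 and 6759 in Msx2-KO (log2 fold change -4.22, adjusted p = 0.0360 by limma). Plec had 62339 and 94428 in WT against 177.0 and 3907 in Msx2-KO (adjusted p = 0.0921). Dsp and Plec have long transcripts and were lower in the libraries where the 3 basal keratins were higher. Itga6, whose exons add up to 9025 bases, was the 1 linker higher without overlap, with 8229 and 9959 in WT against 68397 and 32855 in Msx2-KO. It encodes CD49f, on which both cell types were sorted. Itgb4, whose exons add up to 7015 bases, was among the lower linkers, with 7432 and 11067 in WT against 183 and 1148 in Msx2-KO. Col17a1 overlapped, with 47555 and 58426 in WT against 26811 and 74756 in Msx2-KO.

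Of 9 keratin chaperones and binding proteins, none was called by edgeR or DESeq2 in HFSCs or by limma in EpdSCs. In EpdSCs 3 had an unadjusted p under 0.05 by limma, as had 35.3% of all genes. Ywhaz, a 14-3-3 protein gene, had values of 10690 and 10029 in WT against 20932 and 7224 in Msx2-KO EpdSCs. Sfn, which encodes the 14-3-3 protein of keratinocytes, had 18143 and 14052 in WT against 73.9 and 2717 in Msx2-KO EpdSCs. In HFSCs Trim29 had 3427 and 3657 in WT against 2858 and 3003 in Msx2-KO. Of 17 listed regulators of basal keratins, edgeR in HFSCs and limma in EpdSCs called none. They found 4 and 3 at an unadjusted p under 0.05, beside 18.1% and 35.3% of all genes. DESeq2, which called 4.78% of all genes in HFSCs, called 2 regulators as higher there. Trp63, the master transcription factor of basal keratinocytes and a known activator of Krt5 and Krt14, had 2595 and 3181 in WT against 3381 and 2602 in Msx2-KO HFSCs. In EpdSCs it had 13674 and 15070 in WT against 45362 and 13178 in Msx2-KO. Its groups overlapped in both cell types. Nfib, the most abundant regulator in HFSCs, had 8895 and 8964 in WT against 4906 and 4268 in Msx2-KO, with an adjusted p of 0.188 by edgeR.

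The genes with the most similar pattern were sought among 5568 genes with a mean of at least 100 in both tables, by the root mean square difference of centred log2 values over the 8 libraries. For Krt5 they were Pkn2, Sdc4 and Add1, at differences of 0.099, 0.12 and 0.13, where the median gene was at 0.82. The nearest to Krt14 included Tmem65 (0.11) and Pafah1b2 (0.14), and the nearest to Krt15 were Map3k2 (0.12), Crebrf (0.15) and Tug1 (0.17). No keratin was among them. From Krt5, the difference was 0.33 to Krt15 and 0.72 to Krt14. The filament partners Krt5 and Krt14 were thus less alike over these libraries than Krt5 and Krt15.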

How the data were processed

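Bulk RNA-seq libraries of sorted HFSCs and EpdSCs were grouped by their labels. The authors made stranded total RNA libraries and aligned reads to GRCm38/mm10 with STAR 2.7.3a in Partek, with GENCODE genes. For HFSCs the deposited unit was estimated counts per gene. The deposited EpdSC table held a normalized signal. Its values were estimated counts over a library-specific factor, and genes of low level had been removed. The authors' comparison tables, with fold changes, p-values and FDR values, were not used. The number of value columns mapped to no library was 0.

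HFSC counts were rounded and tested with edgeR 4.0.16 (quasi-likelihood, TMM, filterByExpr). EpdSC values, normalized when deposited, entered limma 3.58.1 as log2(value + 1). Between 70.4% and 89.6% of nonzero values under 1000 counts were within 0.01 of a whole number. Replicate numbers were not taken to pair libraries. Both designs were run on simulated data. The simulated fold changes were larger than those of Krt5, Krt14 and Krt15. The simulated dispersion (spread between libraries) was smaller than the 0.82 fitted in HFSCs. Those runs do not bear on changes of the size seen here. Versions were R 4.3.3, DESeq2 1.42.0 and Python 3.11.15. Exon lengths (overlapping exons counted once), loci and coding sequences came from GENCODE M21, and promoters from RefSeq. Genes were named as the 5 keratins with all values, called keratins, keratins with a mean of at least 100, up to 4 genes of highest mean of each other list, the 3 nearest patterns of each keratin and Msx2. A gene and a sequence are not reported here. Krt19, Itga6 and Itgb4 as linkers and single markers were chosen once values were known. The members and lists were chosen with earlier results of these data known.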

Additional observations from a re-analysis of the deposited data

Results flagged for a closer look

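Krt5 and Krt15 had log2 fold changes of opposite sign in the cell types, and neither gene was called in either. In HFSCs both Msx2-KO libraries were below both WT libraries, with log2 fold changes of -0.72 for Krt5 and -0.88 for Krt15. In EpdSCs both Msx2-KO libraries were above both WT libraries, with log2 fold changes of 0.36 for Krt5 and 1.21 for Krt15. The difference between the cell types was not tested. The direction of Krt5 in EpdSCs turned to -0.18 when mitochondrial and ribosomal RNA genes were left out and libraries scaled to equal totals (0.087 with equal totals alone), while that of Krt15 stayed positive at 0.67. Krt14, by contrast, had positive log2 fold changes of 0.29 and 2.08 with the scalings described above, and -0.54 in HFSCs with library totals.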

How the results depend on the processing

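None of the 5 keratins was called in the fits described above, nor under any alternative that kept all libraries. Leaving out 1 library gave 0 to 1 called in HFSCs and 0 to 2 in EpdSCs. The number of genes called in all varied far more. In HFSCs it was 0 by edgeR, 690 by DESeq2, 1407 by limma-trend, 51 with library totals, 2 with at least 10 counts in every library, and 132 to 9272 with 1 library left out. In EpdSCs it was 1518 by limma, 0 by edgeR on recovered counts (5180 at an unadjusted p under 0.05), and 0 to 10376 with 1 library left out. With 1 library in a group, its spread was assumed to equal that of the other group. Replicate numbers were shared between groups as numbers only. The deviations of same-numbered libraries correlated at -0.056 in HFSCs and -0.023 in EpdSCs, and a replicate block gave 231 called genes in HFSCs and 1271 in EpdSCs and called no keratin.

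Directions of fold changes turned in 2 cases, Krt14 in HFSCs (-0.54 with library totals) and Krt5 in EpdSCs (-0.18 without mitochondrial and ribosomal RNA genes and with equal totals, 0.087 with equal totals alone). With 1 library left out, the log2 difference of Krt5 over Krt14 ranged from -1.10 to -0.91 in HFSCs and from -1.94 to -1.51 in EpdSCs, and that of Krt15 over Krt14 from -1.44 to -0.90 and from -0.94 to -0.80. That of Krt15 over Krt5 ranged from -0.34 to 0.014 in HFSCs, turning positive without Msx2-KO replicate 1, and from 0.70 to 1.00 in EpdSCs. The difference in the share of keratin counts taken by Krt14 ranged from -0.27 to 4.85 percentage points in HFSCs and from 26.1 to 29.9 in EpdSCs. The cause of these changes was not tested. Ratios with Krt8 or Krt18 could not be formed, since counts were 0 or the genes had no entry.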
